A study of Mus musculus with 12 samples.

Results

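The Mir17-92 cluster is a group of 6 miRNA hairpins that are cut from a single primary transcript, Mir17hg. Its members were taken by name from the table of 32101 annotated features, which gave 7 rows of the whole table: the hairpins Mir17, Mir18, Mir19a, Mir20a, Mir19b-1 and Mir92-1, and the host gene Mir17hg. RNAs of 20 to 24 nt were sequenced from mouse embryonic stem cells (ESCs), which grow in culture and can give rise to all lineages of the embryo. The 12 libraries carry 3 genotype labels. WT was represented by 6 libraries with 3 title numbers (1A to 3B), and Dicer/Dnmt1 KO by 4 libraries with 2 title numbers (1A to 2B). WT 2A and 2B are titled E14 2, without the WT that the other WT titles hold, and are WT by their genotype label. Dnmt1 KO had 2 libraries without a number (A and B). The labels name no culture. Below, the libraries of a genotype that share a title number are taken as a culture, as are the 2 of Dnmt1 KO. Dnmt1 encodes the enzyme that copies DNA methylation onto the new strand at replication. Dicer is the ribonuclease that cuts miRNA hairpins into mature miRNAs, so the comparison of the genotypes asks which small RNAs depend on each enzyme. All libraries are labelled as ESCs of the E14 line, without a time after deletion, an age or an added agent. The study's methods describe the Dnmt1 line as C57BL/6 cells with loxP sites on both alleles, deleted by Cre after addition of 4OHT. Combined knockouts were made in that line with CRISPR, with Dicer deleted either conditionally or constitutively. The paper reports small RNA sequencing of the conditional one, but the labels here do not say which was used. The methods describe culture in serum and LIF with or without feeder cells. Whether the WT libraries are the uninduced cells of the Dnmt1 line is not given by the labels, so a difference of line and the genotype cannot be told apart in comparisons with WT. Whether libraries A and B were grown separately or are repeat libraries is not given either. The p-values therefore measure the spread between these libraries, which may be technical.

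Hairpins of a primary transcript are released in the nucleus by Drosha with Dgcr8, exported by Xpo5, and cut by Dicer into short duplexes of which 1 strand is loaded into an Argonaute protein. The seed, bases 2 to 8 of the mature miRNA, sets most of its pairing to target mRNAs, so hairpins with a common seed are treated as a family. Mir17-92 is known as an oncogenic cluster that is induced by Myc, is abundant in dividing and pluripotent cells, and is required for lung, heart and B cell development. It has a pair of relatives that arose by duplication, the Mir106a-363 cluster on the X chromosome and the Mir106b-25 cluster inside an intron of Mcm7.

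On build NCBIM37, Mir17hg runs from 115442101 to 115445949 on the plus strand of chromosome 14, over 3849 bases. Its annotated transcript has 2 exons of 79 and 3457 bases, and all 6 hairpins lie in exon 2. Mir17 (115442893 to 115442976) comes first, 792 bases from the start of the host, followed by Mir18 (115443073 to 115443168), Mir19a (115443222 to 115443303), Mir20a (115443379 to 115443485), Mir19b-1 (115443527 to 115443613) and Mir92-1 (115443649 to 115443728). The mature sequences below are from RefSeq (GRCm38.p6), with the seed in capitals, and are shown because the seeds divide the cluster into families and because 2 of the sequences are also encoded elsewhere. The hairpins of all 6 members in that table equal the NCBIM37 sequence at the coordinates of the data.
miR-17-5p: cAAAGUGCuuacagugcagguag
miR-20a-5p: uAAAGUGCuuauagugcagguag
miR-18a-5p: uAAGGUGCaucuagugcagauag
miR-19a-3p: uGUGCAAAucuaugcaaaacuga
miR-19b-3p: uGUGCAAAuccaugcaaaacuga
miR-92a-3p: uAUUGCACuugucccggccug
The counterparts in the Mir106a-363 cluster and the most abundant member of the Mir106b-25 cluster are shown for comparison, since the counts of a member depend on how its reads were kept apart from theirs.
miR-106a-5p: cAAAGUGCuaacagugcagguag
miR-20b-5p: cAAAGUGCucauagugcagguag
miR-18b-5p: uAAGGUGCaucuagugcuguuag
miR-25-3p: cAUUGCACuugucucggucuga

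The 6 hairpins fall into 4 seed families. Mir17 and Mir20a have the seed AAAGUGC together with Mir106a, Mir20b, Mir106b and Mir93. Mir18 has AAGGUGC together with Mir18b. Mir19a and Mir19b-1 have GUGCAAA together with Mir19b-2. Mir92-1 has AUUGCAC together with Mir92-2, Mir363, Mir25, Mir92b and Mir32. Positions are counted from 1 at the 5′ end, and a substitution gives the base of the member, the position and the base of the relative. miR-17-5p differs from miR-106a-5p by 1 base (U10A), miR-19a-3p from miR-19b-3p by 1 base (U11C), and miR-20a-5p from miR-20b-5p by 2 bases (U1C and U10C). miR-92a-3p is encoded by both Mir92-1 and Mir92-2, and miR-19b-3p by both Mir19b-1 and Mir19b-2, and each of these 2 sequences matched NCBIM37 exactly at 2 places, while every other sequence printed above for the cluster matched at 1. The longest stretch that the Mir92-1 and Mir92-2 hairpins have in common is 22 bases, and that of the Mir19b hairpins is 25 bases. How reads with several matches were placed is not given in the sources used here, so the split of reads between Mir92-1 and Mir92-2, and between Mir19b-1 and Mir19b-2, is uncertain.

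Depth was low. Libraries held between 8710 reads (Dicer/Dnmt1 KO 1B) and 245184 reads (WT 1A), and 1 read was worth 115 and 4.08 RPM in these, the level scaled to the reads of the library. Where no read was found, up to 3 reads are still possible, or 344 RPM at the lowest depth and 12.2 RPM at the highest. Reads of 20 to 24 nt over a coding gene do not measure its mRNA, so the 0 to 3 reads at Dicer1 and the 0 to 18 reads at Dnmt1 do not test the genotype labels. Annotated miRNAs took 29.0% to 69.5% of library reads in WT and 62.7% and 65.4% in Dnmt1 KO. This share was 6.68% to 12.01% for Dicer/Dnmt1 KO. Within WT the shallow library 2A (16142 reads) had the highest miRNA share. Of 12 miRNAs listed as markers of ESCs (the Mir290 to Mir295 and Mir302 to Mir367 groups), 12 had reads in WT and 10 in each knockout group, where Mir302c and Mir367 were at 0. Their summed level was 28683 to 93275 RPM in WT and 55926 to 99648 RPM in Dnmt1 KO, while the Dicer/Dnmt1 KO libraries had 1221 to 3797 RPM. The 15 measured markers of fibroblast feeders and other differentiated cells (such as Mir143, Mir145, Mir10a and Mir21) summed to 9891 to 15527 RPM in WT (10 of 15 with reads) and 41564 to 49551 RPM in Dnmt1 KO (10 of 15). Their sum for Dicer/Dnmt1 KO was 12867 to 41843 RPM (12 of 15), and Mir199a-1, Mirlet7c-1 and Mirlet7c-2 were at 0 in every group. The cell types behind these lists and their part in the results below were not tested.

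Mir92-1 held nearly all reads of the cluster in WT. Its level in the 6 WT libraries had a lowest value of 62074 RPM, a median of 100372 RPM and a highest value of 112509 RPM (mean 92270 ± 22545, SD, n = 6), and with 70113 reads it was the most read miRNA of the group. WT 1A and 2A were the low libraries, at 66036 and 62074 RPM, and the other 4 were at 99626 RPM or above. Mir17 ranged from 283 to 606 RPM (median 330), Mir20a from 248 to 448 RPM (median 320), Mir19a from 62.0 to 579 RPM (median 263) and Mir18 from 0 to 276 RPM (median 193). Mir19b-1 ranged from 0 to 21.4 RPM and had 6 reads in all WT libraries together, where Mir19a, whose mature sequence differs by 1 base, had 286.

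Divided by the length of the annotated hairpin, the WT level was 1153 ± 282 RPM per base for Mir92-1 (SD, n = 6), 4.42 ± 1.43 for Mir17, 3.79 ± 2.21 for Mir19a, 3.15 ± 0.77 for Mir20a, 1.80 ± 1.01 for Mir18 and 0.070 ± 0.096 for Mir19b-1. Mir17, Mir19a and Mir20a stood next to each other in this order, and each differed from the next by less than the SD of either. As a share of the reads of the 6 hairpins, Mir92-1 made up 97.97% to 99.1% across the WT libraries, and Mir17, Mir20a, Mir19a and Mir18 were each at 0.672% or below.

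**Figure D1:**
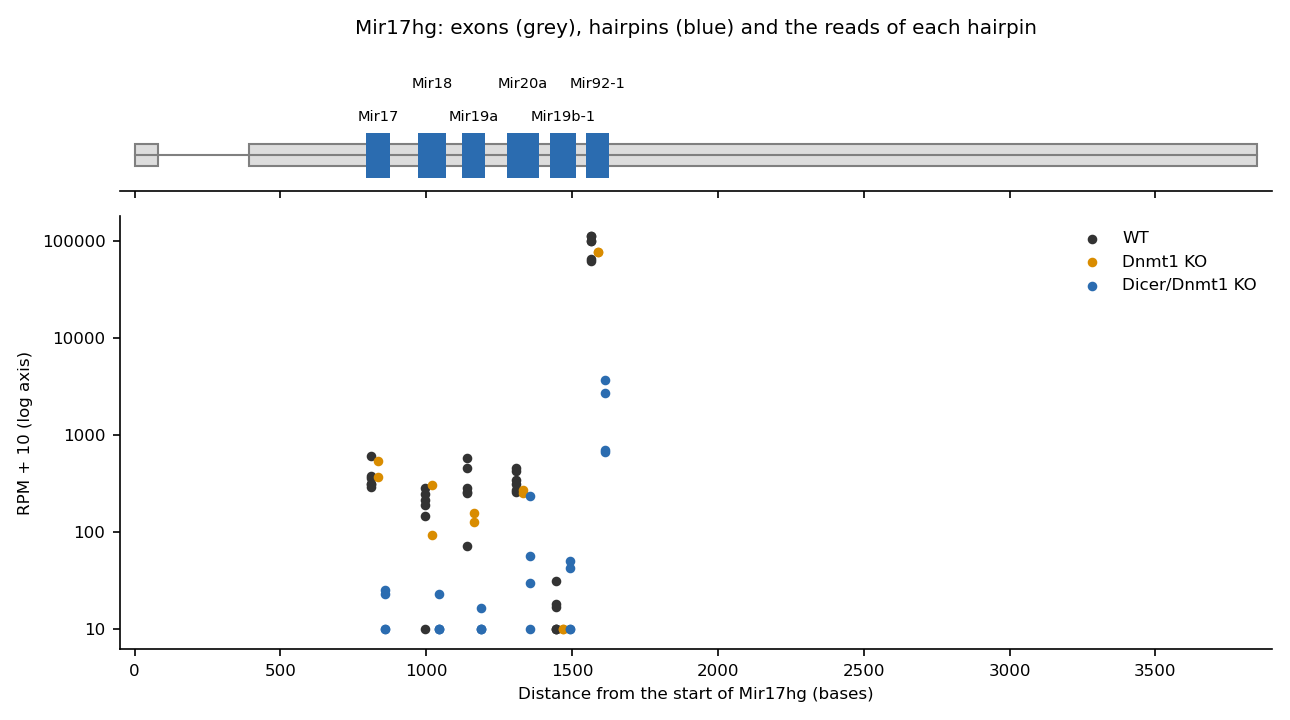
The upper panel shows the exons of Mir17hg (grey) and the 6 hairpins (blue) by their distance in bases from the start of the host gene, and the lower panel shows the level of each hairpin in RPM plus 10 on a log axis, with 1 point per library. Mir92-1, the last hairpin of the transcript, lies at 62074 to 112509 RPM in WT, and the hairpins before it lie at 606 RPM or below.

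Mir17hg repeated the counts of its hairpins. A read inside a hairpin was counted for the hairpin and for the host, and the host exceeded the sum of the 6 hairpins by 2 reads in WT 1A, by 1 read in WT 3A and by 1 read in Dnmt1 KO B, and equalled it in the other 9 libraries. Reads outside the hairpins were therefore 0.0121% of 16528 host reads in WT 1A and at most 0.0122% in any library. The value of Mir17hg is not a measurement of the primary transcript, and no difference in reads outside the hairpins was detectable at this depth (adjusted p of at least 0.91 for the 3 comparisons, exact permutation tests).

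In the Dicer/Dnmt1 KO, the cluster was nearly lost. Mir92-1 was at 3675, 689, 2696 and 657 RPM in the 4 Dicer/Dnmt1 KO libraries, from 90, 6, 171 and 99 reads, so the highest of them was below the lowest WT library and the groups did not overlap. Its mean was 1929 ± 1505 RPM (SD, n = 4), and in both cultures library A was above library B. In bulk libraries fewer cells with the miRNA and less of it per cell cannot be told apart. From pooled reads, Mir92-1 was 62.1-fold lower than in WT (95% exact interval 56.1 to 69.0, counting error only), which was 1480 against 91934 RPM. Mir17hg had 91, 8, 175 and 112 reads, which are those of the hairpins.

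The hairpins upstream of Mir92-1 were left with single reads. Mir17 had 0, 0, 1 and 2 reads in the Dicer/Dnmt1 KO libraries (0 to 15.8 RPM) against 6 to 85 reads in the WT libraries, and the groups did not overlap in RPM. Pooled, Mir17 was 30.3-fold lower (95% exact interval 10.3 to 148). Mir19a, of the GUGCAAA family, had 0, 0, 0 and 1 reads against 1 to 111 in WT, and its 6.64 RPM in Dicer/Dnmt1 KO 2B was below all WT libraries. Its pooled ratio was 92.8-fold lower with a wide interval (16.5 to 3676), since it rests on 1 read. Mir18 had 0, 0, 0 and 2 reads against 0 to 44, and here the groups overlapped because WT 2A had no read, with 186 RPM allowed at its depth. Pooled, Mir18 was 25.5-fold lower (6.93 to 212).

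Mir20a kept the most of these reads. It had 0, 2, 3 and 3 reads in the Dicer/Dnmt1 KO libraries, which is 0, 230, 47.3 and 19.9 RPM. The 2 reads of library 1B, at 115 RPM each, came close to the lowest WT library (248 RPM), and the groups did not overlap. Pooled, Mir20a was 11.4-fold lower than in WT (95% exact interval 5.72 to 26.7). The interval of its ratio overlaps that of Mir17, which has the same seed. Mir19b-1 had 1, 0, 0 and 5 reads in Dicer/Dnmt1 KO and 2, 0, 0, 3, 0 and 1 in WT, a ratio of 3.08 with an interval (0.82 to 11.5) that includes 1.

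**Figure D2:**
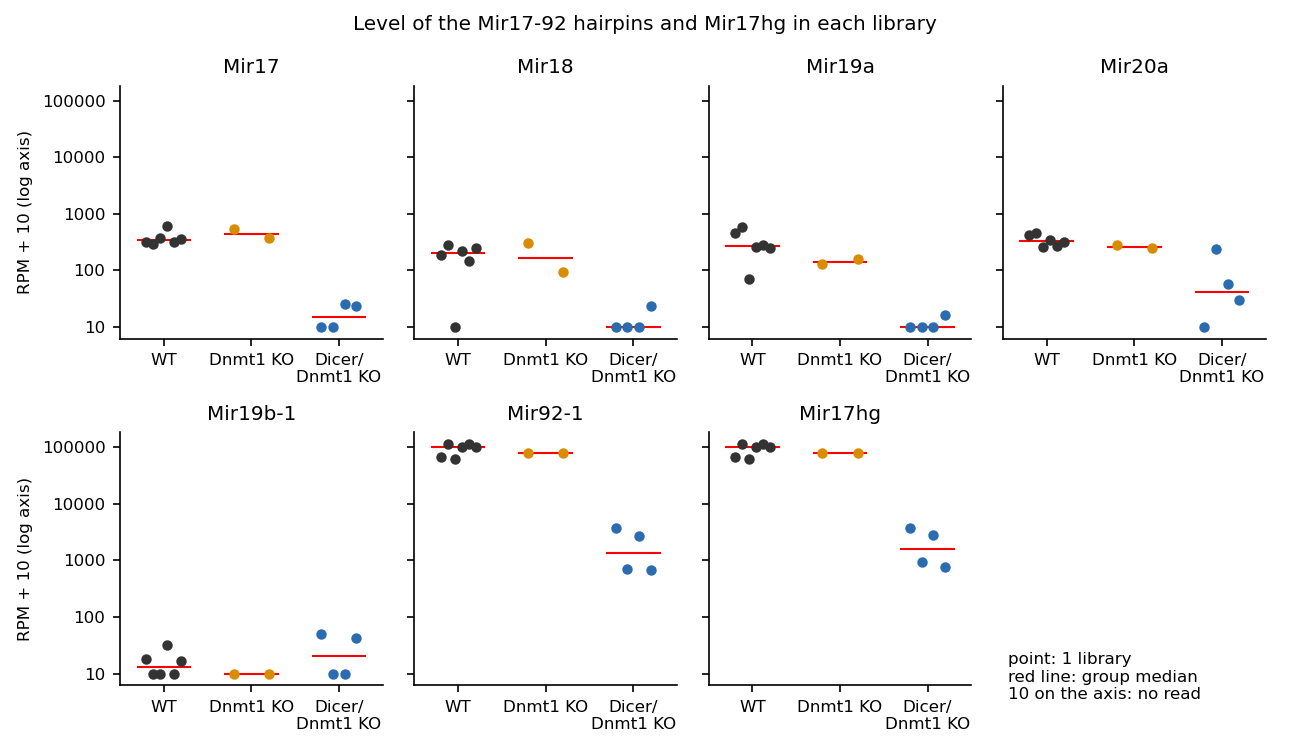
Level of each hairpin and of Mir17hg in RPM plus 10 on a log axis, with 1 point per library, grouped as WT, Dnmt1 KO and Dicer/Dnmt1 KO, and the group median as a red line. In the panel of Mir92-1 the Dicer/Dnmt1 KO libraries lie at 657 to 3675 RPM, and the WT and Dnmt1 KO libraries lie at 62074 RPM or above.

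These differences were tested in a limma fit over 683 features on log2(RPM + 10) of reads scaled by trimmed means (TMM), a scale that understates the change of features with few reads. Against WT, 6 of the 7 members were tested and Mir19b-1, with 12 reads in the whole series, was not. Mir17, Mir18, Mir19a and Mir20a passed the filter on low values through WT and Dnmt1 KO libraries, so the count of members called is a description. All 6 fell in Dicer/Dnmt1 KO, where 19.0% of the 683 tested features were called lower and 5.12% higher. The log2 fold change of Mir92-1 was -6.78 ± 0.49 (SE, adjusted p = 4.1e-07, limma). It depended on the scaling and was -5.93 with unscaled library reads. Mir17hg, which repeats Mir92-1, had -6.64 ± 0.45 with TMM (adjusted p = 3.17e-07, limma). The log2 fold changes of Mir17 and Mir19a were -4.90 ± 0.50 and -4.799 ± 0.46, with adjusted p of 4.96e-06 and 3.07e-06 in limma. Those of Mir20a and Mir18 were -3.52 ± 0.60 (adjusted p = 0.000415) and -3.42 ± 0.88 (adjusted p = 0.00926). The median log2 fold change was -0.09 over all tested features, and over the 133 tested miRNAs it was -2.75, with 81 miRNAs lower and 16 higher. The Mir18 call was lost when WT 2A and 2B, the culture titled E14 2, were the only WT libraries (log2 fold change -2.17, adjusted p = 0.218).

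In Dnmt1 KO no member was called different from WT, with wide intervals. Mir92-1 was at 77603 and 77430 RPM in the 2 Dnmt1 KO libraries, inside the WT range, and its log2 fold change against WT was -0.05 with a 95% interval of -1.39 to 1.29. Mir17 was at 532 and 362 RPM, both inside the range of the WT libraries. Mir20a was at 266 and 242 RPM, on either side of the lowest WT library, with a log2 fold change of -0.21 (-1.85 to 1.43). Mir18 was at 296 and 83.6 RPM, a spread from above the highest WT library to below 5 of the 6. Mir19a was at 118 and 149 RPM, between WT 2A, which had a single read, and the other 5 WT libraries, and its log2 fold change was -0.75 (-2.02 to 0.52). From pooled reads the Mir19a ratio was 0.365 (95% exact interval 0.230 to 0.554, counting error only), a difference larger than counting error but within the spread of libraries in the fit. Mir19b-1 had no read in either library.

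None of the 6 tested members was called in Dnmt1 KO against WT by limma, with a lowest adjusted p of 0.56, for Mir19a, and none had an unadjusted p under 0.05. Among all tested features 0.293% were called lower and 6.59% higher in this comparison. Of the 133 miRNAs tested, 28 were higher and 1, Mir20b, was lower, with a median log2 fold change of 1.40 against 0.13 over all features. The median of the 5 tested hairpins of the cluster was -0.05.

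Between the knockouts, all 6 tested members fell in Dicer/Dnmt1 KO against Dnmt1 KO, where 21.7% of the tested features were called lower and 1.17% higher. With culture as a random block the call of Mir18 was lost (limma adjusted p = 0.068 with an estimated correlation). The log2 fold change was -6.73 ± 0.66 for Mir92-1 (SE, limma adjusted p = 7.11e-06), -5.35 ± 0.67 for Mir17, -4.17 ± 1.17 for Mir18, -4.05 ± 0.62 for Mir19a and -3.31 ± 0.80 for Mir20a, with limma adjusted p of at most 0.017. From pooled reads, Mir92-1 was 52.4-fold lower than in Dnmt1 KO (95% exact interval 47.2 to 58.3). The comparison with WT has the same Dicer/Dnmt1 KO libraries, so the results are not independent. The calls of Mir18 (adjusted p = 0.233) and Mir20a (0.0652) were lost without Dnmt1 KO A, which leaves a single Dnmt1 KO library whose spread is taken from the other groups. The median over the 133 tested miRNAs was -4.17, with 99 lower and 0 higher.

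**Figure D3:**
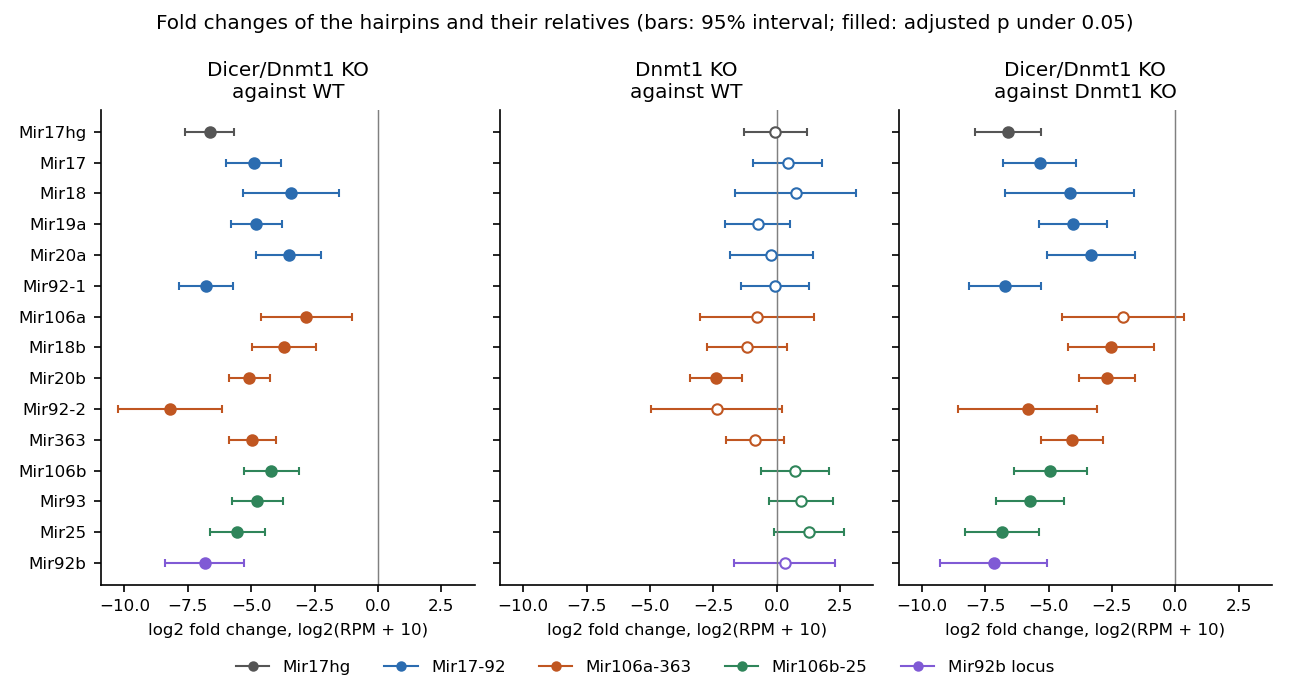
Log2 fold change on the log2(RPM + 10) scale for the tested members, the tested hairpins of the Mir106a-363 and Mir106b-25 clusters and Mir92b, in the 3 comparisons, with 95% intervals from limma and filled points for adjusted p under 0.05. The 6 tested members lie between -6.78 and -3.42 in Dicer/Dnmt1 KO against WT and between -0.75 and 0.75 in Dnmt1 KO against WT.

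The share of library reads is the summed RPM level of the 6 hairpins written in percent, without TMM scaling, so it restates the levels above. The 6 hairpins took 6.28% to 11.4% of library reads in WT (median 10.2%), and 7.88% and 7.83% in Dnmt1 KO. Their share was 0.372%, 0.0918%, 0.276% and 0.0743% for the Dicer/Dnmt1 KO libraries. The Dicer/Dnmt1 KO libraries lay below all others, at a mean of 0.203% ± 0.145 (SD, n = 4) against 9.35% ± 2.27 (SD, n = 6) in WT. The difference had the smallest p that 4 against 6 libraries can give (p = 0.00952, two-sided exact permutation test), and the adjusted p over the 33 tests of this kind was 0.105, which did not pass 0.05. A p at this floor could pass the adjustment only if several other tests reached it too. For 2 against 6 libraries the smallest p is 0.0714 and for 4 against 2 it is 0.133, so no comparison with Dnmt1 KO could pass. The Dnmt1 KO share lay within the WT range (p = 0.43, adjusted 0.79, exact permutation test).

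The share of miRNA reads sets the cluster against all annotated miRNAs. It was 9.03% to 31.5% in WT (median 25.8%), and 12.04% and 12.5% in Dnmt1 KO. The 4 Dicer/Dnmt1 KO libraries had 3.09%, 1.37%, 2.69% and 1.04%. The Dicer/Dnmt1 KO libraries were below all WT libraries on this measure too, with 2.05% ± 0.995 (SD, n = 4) against 23.6% ± 8.32 (SD, n = 6), p = 0.00952 and adjusted p = 0.105 in the exact permutation test. The lowest WT library was 2A at 9.03% (95% Wilson interval 8.52 to 9.58), the only WT library below the Dnmt1 KO libraries. WT 2B, which shares its title number, was next at 19.97%. The WT libraries numbered 1 and 3 were at 23.2% to 31.5%, so the culture titled E14 2 was the lowest of WT. Mir92-1 was the miRNA with most reads in WT, the second in Dnmt1 KO and number 14 in Dicer/Dnmt1 KO.

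**Figure D4:**
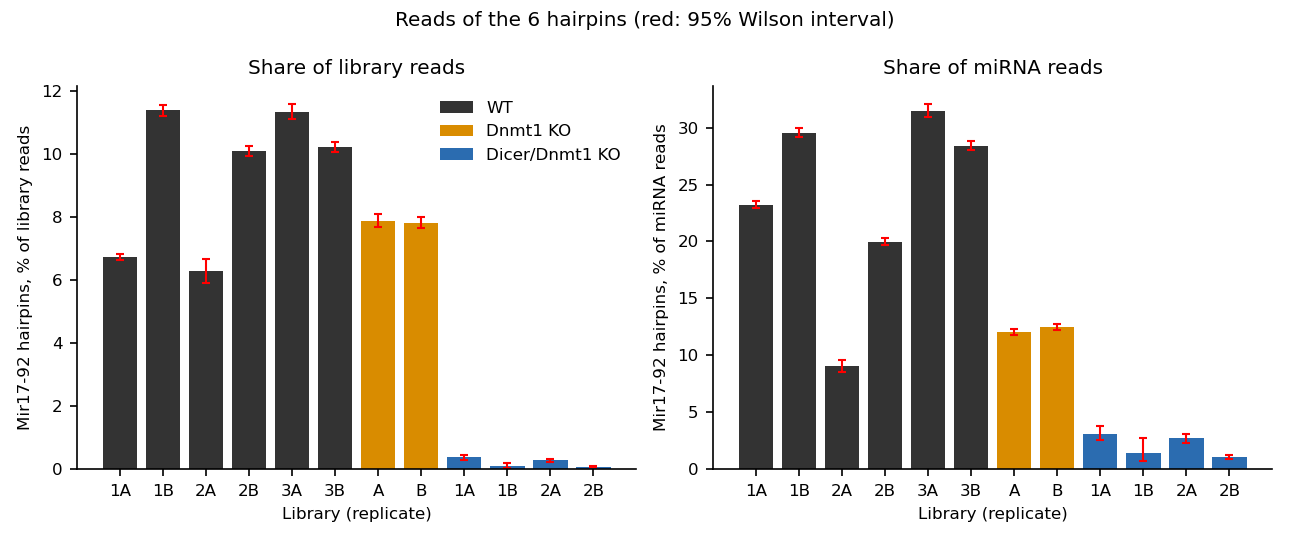
Share of the reads of each library (left) and of its annotated miRNA reads (right) that fell in the 6 hairpins, in percent, with bars for single libraries coloured by genotype and 95% Wilson intervals in red. The Dicer/Dnmt1 KO bars lie at 0.372% or below of library reads and at 3.09% or below of miRNA reads.

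Mir92-1 was the main hairpin of the cluster in every library. It made up 98.7% ± 0.40 of cluster reads in WT (SD, n = 6) and 98.5% and 98.9% in Dnmt1 KO. For Dicer/Dnmt1 KO the values were 98.9%, 75.0%, 97.7% and 88.4%, from 91, 8, 175 and 112 cluster reads. The 75.0% of library 1B is 6 of 8 reads (95% Wilson interval 40.9% to 92.9%), while the 88.4% of library 2B (81.1% to 93.1%) lay below the intervals of the WT libraries. Library 2B held 2 reads of Mir17, 2 of Mir18, 1 of Mir19a, 3 of Mir20a and 5 of Mir19b-1 beside 99 of Mir92-1. The difference of means to WT was -8.68 percentage points (p = 0.0667, adjusted 0.295, exact permutation test), and the shares of the other 5 hairpins had adjusted p of 0.295 or above against WT.

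The cluster was then set against its relatives within each library. The ratio of summed reads to the Mir106a-363 cluster, with 0.5 read added to each sum, had a log2 value of 0.90 to 1.49 in WT (median 1.24). It was 3.71 and 3.36 in the 2 Dnmt1 KO libraries, above all WT libraries, with a difference of means of 2.30 (p = 0.0714, the smallest for these numbers of libraries, and adjusted p = 0.295, exact permutation test). The Dicer/Dnmt1 KO libraries had 1.45, 4.09, 1.69 and 2.60, where 1 library overlapped WT. The mean difference of 1.22 had p = 0.019 and adjusted p = 0.157 in the exact permutation test, and it was 0.68 without library 1B, in which the Mir106a-363 cluster had no read. In WT and Dnmt1 KO both sums are mostly reads of Mir92-1 and Mir92-2, which encode the same mature sequence. This ratio therefore carries the uncertain split of their reads, and no setting with those reads summed was run for it.

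Most reads of the Mir106a-363 cluster were those of Mir92-2, the second source of miR-92a-3p. Mir92-2 was at 25797 to 48895 RPM in WT (median 39152) and at 5792 and 7379 RPM in Dnmt1 KO. It had 1347, 0, 836 and 119 RPM in the Dicer/Dnmt1 KO libraries. Both Dnmt1 KO libraries were below all WT libraries, yet the limma log2 fold change of -2.37 (95% interval -4.96 to 0.22) did not pass (adjusted p = 0.321). The reads assigned to Mir92-1 per read of Mir92-2 were 1.88 to 2.82 in WT and 13.4 and 10.5 in Dnmt1 KO. In Dicer/Dnmt1 KO they were 2.73, 3.23 and 5.50 in the libraries 1A, 2A and 2B, and 6 to 0 reads in 1B. Summed over both hairpins, so that the split of the sequence they have in common does not enter, no call changed in any of the 3 comparisons.

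The mature sequences of Mir106a, Mir18b and Mir20b differ from their counterparts in Mir17-92 by 1 or 2 bases. Mir20b, the counterpart of Mir20a, was at 186 to 333 RPM in WT (median 289) and at 29.6 and 55.8 RPM in Dnmt1 KO. The groups did not overlap, and Mir20b fell by 2.38 ± 0.48 on the log2 scale (adjusted p = 0.00638, limma), while Mir20a was not called in the same comparison. The difference between the 2 changes was not tested. Mir18b, Mir106a and Mir363 had log2 fold changes of -1.16, -0.77 and -0.86 in Dnmt1 KO against WT and were not called. In Dicer/Dnmt1 KO against WT all 5 tested hairpins of the X-linked cluster fell, where 19.0% of all tested features and 60.9% of the tested miRNAs were called lower. Against Dnmt1 KO 4 of 5 fell, and Mir106a (-2.06 ± 1.11, adjusted p = 0.277, limma) did not pass. Of all tested features 21.7% were called lower there, and of the tested miRNAs 74.4%, so this count is near that of miRNAs in general. Mir20b, Mir106a and Mir363 had no read in any Dicer/Dnmt1 KO library.

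The ratio to the Mir106b-25 cluster was low in the knockout libraries. Its log2 value was 2.93 to 3.996 in WT (median 3.51) and 2.28 and 2.13 in Dnmt1 KO. The Dicer/Dnmt1 KO libraries had 2.76, 1.77, 2.12 and 2.199, so that both knockout groups lay below every WT library. The difference to WT was -1.25 in Dicer/Dnmt1 KO (p = 0.00952, adjusted 0.105) and -1.26 in Dnmt1 KO (p = 0.0714, adjusted 0.295, exact permutation tests). The knockouts differed from each other by 0.0062 (adjusted p = 0.96, exact permutation test). Mir25, which has the seed of miR-92a and most reads of that cluster, was at 5830 to 10699 RPM in WT (median 6339) and at 13934 and 15594 RPM in Dnmt1 KO. Its limma log2 fold change was 1.28 (95% interval -0.11 to 2.66, adjusted p = 0.321). In Dicer/Dnmt1 KO it was at 449, 115, 520 and 133 RPM, and all 3 tested hairpins of the cluster fell against WT and against Dnmt1 KO. In these comparisons 19.0% and 21.7% of all tested features were called lower, and 60.9% and 74.4% of the tested miRNAs.

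**Figure D5:**
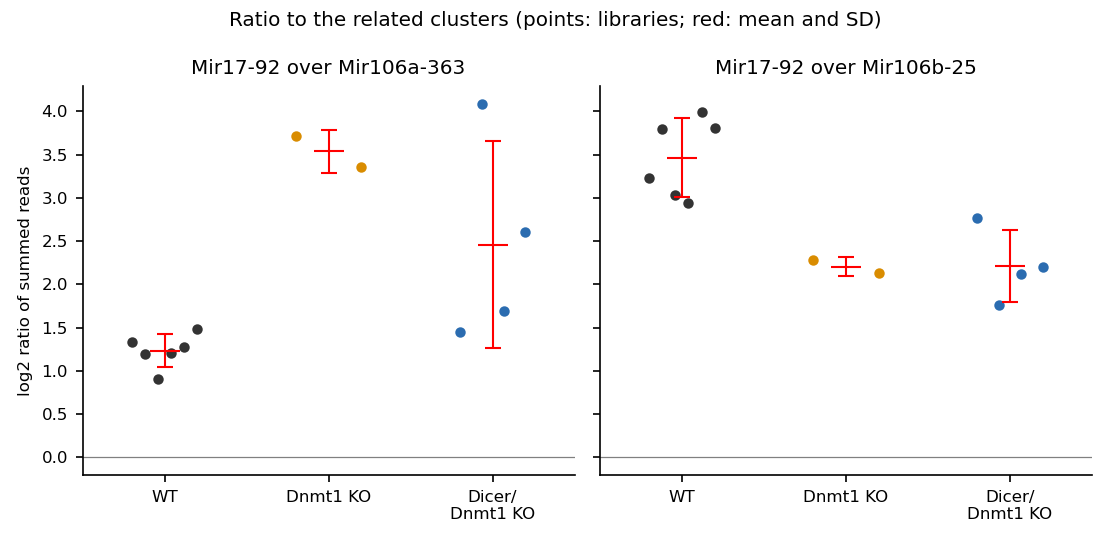
Log2 ratio of the summed reads of Mir17-92 to those of the Mir106a-363 cluster (left) and the Mir106b-25 cluster (right), with 1 point per library and the mean and SD in red. The Dnmt1 KO libraries lie at 3.36 and 3.71 on the left, above WT, and at 2.13 and 2.28 on the right, below WT.

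By seed, the cluster supplied different parts of each family. In the AUUGCAC family, Mir92-1 gave 55.8% to 69.5% of the reads of all 6 hairpins in WT and 77.4% and 73.1% in Dnmt1 KO, and its share ranged from 65.0% to 85.7% over the Dicer/Dnmt1 KO libraries. The family as a whole averaged 142346 ± 30139 RPM over the WT libraries (SD, n = 6). The mean of Dnmt1 KO was 103109 ± 3953 RPM (SD, n = 2), and that of Dicer/Dnmt1 KO was 2863 ± 2366 RPM (SD, n = 4). In the AAAGUGC family, Mir17 and Mir20a gave 23.5% to 35.7% in WT and 25.4% and 20.2% in Dnmt1 KO, and Mir93 of the Mir106b-25 cluster had more reads per base of hairpin than either in 8 of 8 libraries of these groups. In the GUGCAAA family, Mir19a had 286 reads in WT, Mir19b-1 had 6 and Mir19b-2 had 7, all of the latter in WT 1A. In Dnmt1 KO Mir19a had 24 reads and the others none, and the few reads of Dicer/Dnmt1 KO were 1 of Mir19a and 6 of Mir19b-1.

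The features whose level followed the summed cluster most closely over the 12 libraries, outside Mir17hg and the relatives, were Mir294 (Pearson's r = 0.99 on the log2(RPM + 10) scale), Mir582 (0.99), Mir130a (0.99), Mir292 (0.98) and Mir30e (0.98). Mir292 and Mir294 belong to the ESC-specific Mir290 to Mir295 group. The libraries have the same depths and the same drop in Dicer/Dnmt1 KO behind each of these values, so they are a description. The 10 genes listed for miRNA processing, such as Drosha, Dgcr8, Xpo5 and the Argonaute genes, were in the table and none passed the filter. No single gene of them had more than 9 reads in a library.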

How the data were processed

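Small RNAs of 20 to 24 nt from 12 mouse ESC libraries were analysed. The labels and methods state that adapters were removed with Trim Galore 0.3.5, that reads were aligned with Bowtie2 2.2.6 to NCBIM37, and that overlaps with annotated features were counted in SeqMonk, both strands together. The placement of reads with several matches is not given in the sources used here. The deposited values are log2 RPM, for which the authors divided by library depth, and a feature with 0 reads holds the value of 0.9 read. Undoing this scaling gave whole reads for 100% of values (tolerance 0.02). The table has 89 other value columns, which match none of the samples and were left out.

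Recovered reads were normalised by TMM, with 30% of log ratios and 5% of abundances trimmed. The log2(RPM + 10) values of the 3 groups were fitted in 1 model with limma 3.58.1 in R 4.3.3 (trended variance), with Benjamini-Hochberg adjustment at 0.05. A feature was tested if 2 libraries reached 111 RPM, the value of 10 reads at the median depth (89885), and if it had 15 reads in all, which left 683. The fit was tested on simulated data. Shares and log2 ratios were compared by two-sided exact permutation tests over libraries, adjusted over all 33 of them. Intervals are 95% Wilson intervals for shares of a library and exact ones for ratios of pooled reads. They and the limit of 3 reads for a count of 0 cover counting error only and leave out the spread between libraries. PCR copies were not marked, so the counting error itself may be larger. Alternatives were other scalings, pseudocounts and filters, voom, A and B summed, culture as a random block, a replicate block, leaving out libraries, and adding Mir92-2 to Mir92-1 and Mir19b-2 to Mir19b-1.

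The members, the lists of relatives, markers and processing genes, and the rule for naming the 5 most alike features were chosen with earlier results of these data known. Mature and hairpin sequences are from RefSeq (GRCm38.p6) and were matched to NCBIM37.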

Additional observations from a re-analysis of the deposited data

Results flagged for a closer look

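Of 35 groups of 4 or 6 libraries examined, 6 held a value that exceeded Dixon's 95% critical value, which chance alone exceeds in about 1 of 20 groups. The level of Mir17 in WT 2B was 606 RPM, and the other WT libraries were at 283 to 372 RPM. The level of Mir18 in Dicer/Dnmt1 KO 2B was 13.3 RPM and that of Mir19a was 6.64 RPM, where the other Dicer/Dnmt1 KO libraries had no read of either. In the same library Mir18 made up 1.79% and Mir19a 0.893% of cluster reads. Library 2B is the deepest of its group, and these values rest on 2 and 1 reads. With the rest of the group at 0, any single read exceeds the critical value, so these 4 values say only that reads were found in 1 library. Mir20a made up 25.0% of cluster reads in Dicer/Dnmt1 KO 1B, which is 2 of 8 reads, against 0 to 2.68% in the other libraries of the group.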

How the results depend on the processing

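All 6 tested members stayed called lower in Dicer/Dnmt1 KO against WT under each alternative except with E14 2 as the only WT, which called 5. Leaving out each library gave 6 in each case, and the log2 fold change of Mir92-1 ranged from -7.07 to -6.32. Over the other settings it ranged from -7.13 to -5.93, the latter with unscaled library reads. The replicate block of WT and Dicer/Dnmt1 KO libraries with the same title number also called 6, with -6.68 for Mir92-1. The deviations of same-numbered libraries correlated at -0.285 to 0.112. These values show no pairing by number, but they cannot exclude one at this depth. In the shares and ratios the block cannot give p below 0.125. Against Dnmt1 KO, the count was 5 with unscaled library reads, 5 with culture as a random block (Mir18 was lost, adjusted p = 0.068, limma), 4 of 7 without a filter (Mir19a and Mir20a were lost), and 4 to 6 when 1 library was left out, the 4 being without Dnmt1 KO A. In Dnmt1 KO against WT the count was 0 throughout. Calls over all tested features depended on the setting more than those of the members: 47 features in Dnmt1 KO against WT became 12 with A and B summed and 181 without E14 2. Unscaled library reads moved the median of all features to 0.61 and 0.75 in the Dicer/Dnmt1 KO comparisons with WT and Dnmt1 KO, from -0.09 and -0.16, and factors from snoRNAs and snRNAs moved it to 0.51 in Dnmt1 KO against WT.

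Values that changed sign were never past the threshold, and the cause was not tested. In Dnmt1 KO against WT, the log2 fold changes of Mir92-1 and Mir17hg (-0.05) became 0.37 and 0.37 with factors from snoRNAs and snRNAs, 0.032 and 0.032 with medians of ratios, 0.12 and 0.12 with TMM without miRNAs, and 0.0020 and 0.0013 without E14 2. Mir20a became 0.20 with snoRNA factors, Mir18 became -0.069 with A and B summed and -0.030 without E14 2, and Mir17 became -0.59 with E14 2 as the only WT. Leaving out a library gave -0.11 to 0.23 for Mir92-1 and Mir17hg, -0.12 to 1.82 for Mir18 and -0.29 to 0.13 for Mir20a.

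With A and B summed, the difference in the Mir17 share of cluster reads between the knockouts became -0.023 percentage points, that of Mir19a -0.00025, and that of Mir18 in Dnmt1 KO against WT -0.0016. With the copies added, the Mir17 share between the knockouts became -0.032, and in Dnmt1 KO against WT Mir20a became 0.031 and Mir92-1 -0.27. Host reads outside the hairpins became -0.00014 in Dnmt1 KO against WT without E14 2, and the log2 ratio to Mir106b-25 between the knockouts became -0.059 with 1 read added. Leaving out a library gave, for the shares in Dicer/Dnmt1 KO against WT, -0.23 to 0.37 for Mir17 and -0.18 to 0.42 for Mir18. Between the knockouts it gave -0.38 to 0.22 for Mir17, -0.24 to 0.35 for Mir18, -0.17 to 0.13 for Mir19a and -0.18 to 0.15 for the log2 ratio to Mir106b-25. In Dnmt1 KO against WT it gave -0.071 to 0.20 for Mir18, -0.22 to 0.25 for Mir92-1 and -0.0041 to 0.0078 for reads outside the hairpins. Depth limits the hairpins other than Mir92-1, each of which had at most 8 reads over the Dicer/Dnmt1 KO libraries.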

Other observations

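Hairpins outside the 3 clusters also carry the seed of miR-92a. Mir92b, on chromosome 3, was at 1737 to 9231 RPM in WT (median 2955), where the highest value was that of the shallow library 2A, and at 2822 and 5344 RPM in Dnmt1 KO. Its level was 81.7, 0, 94.6 and 33.2 RPM in the Dicer/Dnmt1 KO libraries, below every other library. The log2 fold change against WT was -6.84 ± 0.73 (SE, adjusted p = 7.61e-06, limma). Its mature sequence differs from miR-92a-3p by 2 bases over the 21 compared (U10C and G21C, counted from the 5′ end, with the base of miR-92a-3p first). Mir32, on chromosome 4, had at most 12 reads in a library and was not tested.

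Mir93 and Mir106b of the Mir106b-25 cluster carry the seed of Mir17 and Mir20a. Mir93 was at 651 to 2240 RPM in WT (median 1134) and at 1936 and 1942 RPM in Dnmt1 KO, with a log2 fold change of 0.96 that was not called (limma adjusted p = 0.428). Mir106b was at 61.95 to 471 RPM in WT (median 299) and at 355 and 362 RPM in Dnmt1 KO, and its log2 fold change of 0.73 was not called either (limma adjusted p = 0.604). Against WT, the log2 fold changes in Dicer/Dnmt1 KO were -4.76 for Mir93 and -4.1996 for Mir106b.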
